A study of Mus musculus with 2 samples.

Results

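The Dectin and Mincle lectin genes are 7 C-type lectin genes expressed by myeloid cells: Clec4a1, Clec4a3, Clec4d, Clec4e, Clec4n, Clec7a and Clec12a. They were found by symbol among the 55386 features of each library, and all 7 were present in both. Single CD45+ leukocytes had been sorted from the aortic adventitia of RankCreRosa26eYFP mice of about 16 weeks and profiled by 3' single-cell RNA-seq, with 1 library from untreated animals (steady state, 3 animals pooled) and 1 from animals given angiotensin II (AngII, 1.8 µg/kg/min for 10 days, 2 animals pooled). AngII is the pressor hormone used to induce arterial inflammation. In this strain Cre recombinase is driven by Rank (Tnfrsf11a) and switches on the eYFP reporter, so that Yfp+ macrophages carry a mark of descent from Rank-expressing embryonic precursors. Both libraries came from this genotype. Each condition is a single library, so animals cannot be told apart, no p-value can be given for treatment, and each interval below is a 95% interval that covers counting error only.

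C-type lectin receptors bind sugars and lipids of microbes and of damaged cells. Clec7a encodes Dectin-1, the receptor for beta-glucans, which signals through its own cytoplasmic motif. Clec4n (Dectin-2), Clec4d (MCL) and Clec4e (Mincle) have short tails and signal through the adaptor Fc receptor gamma chain, encoded by Fcer1g. Both routes lead through the kinase Syk to the Card9, Bcl10 and Malt1 complex and to NF-kB. Clec12a encodes an inhibitory receptor that recruits phosphatases and binds uric acid crystals. Clec4a1 and Clec4a3 belong to the dendritic cell immunoreceptor (DCIR) family. In the text, Clec4d, Clec4e, Clec4n and Clec7a are called the 4 Syk-coupled receptors.

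All 7 genes lie on mouse chromosome 6 (GRCm38, GENCODE M21 annotation) in 2 blocks separated by 6.05 Mb. The first block spans 368.0 kb and holds Clec4a1 (122921848 to 122934619, plus strand), Clec4a3 (122952515 to 122969875, plus), Clec4n (123229843 to 123247021, plus), Clec4d (123262111 to 123275265, plus) and Clec4e (123281789 to 123289870, minus). The second spans 130.1 kb and holds Clec12a (129342691 to 129365303, plus) and Clec7a (129461591 to 129472779, minus). Clec4d and Clec4e are the closest pair, with 6.5 kb between their ends. The annotation lists Clec7a as a polymorphic pseudogene and the other 6 as protein coding. No stretch of 91 bases, the length of the transcript read, in any annotated transcript of the 7 genes recurred in a transcript of another gene, so exact copies shared between these genes, or with others, were not found at that length.

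Because Clec4d and Clec4e lie side by side and were high in the same classes, and Clec12a followed another pattern, the 250 bases before the RefSeq transcript start of these 3 genes are shown, with Clec7a beside them (GRCm38.p6, 5′ to 3′ on the strand of the gene). Capitals mark matches, on either strand, to the letters GAGGAA (PU.1, a regulator of myeloid genes), TTGCNNAA (C/EBP), TGANTCA (AP-1) and to an NF-kB motif (GGGA, then 4 bases of any kind, then CC). The windows are chr6:123261857-123262106 (plus strand) for Clec4d, chr6:123289872-123290121 (minus) for Clec4e, chr6:129472780-129473029 (minus) for Clec7a and chr6:129349994-129350243 (plus) for Clec12a.
Clec4d: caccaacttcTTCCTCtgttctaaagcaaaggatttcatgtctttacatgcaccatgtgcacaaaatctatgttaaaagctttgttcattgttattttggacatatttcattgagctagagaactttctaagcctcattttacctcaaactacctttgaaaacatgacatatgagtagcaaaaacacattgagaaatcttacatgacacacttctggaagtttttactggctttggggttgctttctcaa
Clec4e: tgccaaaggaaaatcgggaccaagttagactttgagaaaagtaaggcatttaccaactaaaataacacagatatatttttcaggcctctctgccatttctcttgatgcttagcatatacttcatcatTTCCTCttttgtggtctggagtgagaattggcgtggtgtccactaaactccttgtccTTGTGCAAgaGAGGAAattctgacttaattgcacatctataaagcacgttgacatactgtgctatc
Clec7a: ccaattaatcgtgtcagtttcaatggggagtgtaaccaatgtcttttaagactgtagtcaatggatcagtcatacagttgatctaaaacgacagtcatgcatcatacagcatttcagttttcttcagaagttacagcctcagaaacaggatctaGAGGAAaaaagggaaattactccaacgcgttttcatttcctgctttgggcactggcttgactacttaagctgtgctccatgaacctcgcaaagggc
Clec12a: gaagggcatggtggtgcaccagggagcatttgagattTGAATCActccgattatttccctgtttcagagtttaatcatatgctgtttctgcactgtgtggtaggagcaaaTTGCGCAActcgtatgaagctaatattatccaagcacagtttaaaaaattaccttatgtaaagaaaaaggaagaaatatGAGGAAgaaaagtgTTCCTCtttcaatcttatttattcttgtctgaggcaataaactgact
The PU.1 letters were found once in the Clec4d and Clec7a windows and at 2 places in those of Clec4e and Clec12a. The C/EBP letters were found in Clec4e and in Clec12a, where the same bases match on both strands, and the AP-1 letters in Clec12a. No NF-kB match was present in these 4 windows, and no matches to different motifs overlapped. Of 32851 windows of the same length before annotated starts, 23.3% held the PU.1 letters, 9.56% the C/EBP letters, 6.75% the AP-1 letters and 17.6% the NF-kB letters. These matches describe the sequence and were not tested against the expression values.

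The steady state library held 346 barcodes and 4009678 UMIs, and the AngII library 4419 barcodes and 20481854 UMIs. No barcode was shared between them. After the study's filter on cells, 306 and 4198 cells remained, with a median of 9105 and 1092 UMIs per cell. This depth gap means that the share of cells with a UMI cannot be compared directly, so levels are given as counts per 1000000 UMIs summed over the cells of a class (CPM), and shares after each cell had been thinned to 1000 UMIs. A UMI stands for 1 captured transcript end, so CPM values are not scaled by gene length. Cells were sorted into classes by marker genes that include none of the 7 lectins, and class names stand for cells that resemble the type by these markers. The gate left 36 steady state and 1156 AngII cells without a class. Its classes had 1 or more of their own markers among their top 10 genes, with the exception of the 6 steady state C1q macrophages without the resident signature and the single steady state Arg1 Spp1 cell, which are not compared here. Immunoglobulin genes stood among the top 10 genes of the AngII classical monocytes beside 5 of their own markers.

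B and T cells, which should lack these receptors, gave the background. At steady state their 67 cells (median 6669 UMIs) held 0 UMIs of 6 of the genes and 3 UMIs of Clec12a, so a count of 0 allows up to 6.64 CPM. In the AngII library the 306 B and T cells (median 1069 UMIs) held 7.64 to 28.3 CPM of each gene. The highest of these, Clec4e, rested on 1 B cell that held 32 of the 37 UMIs, and T cells alone held 4.52 CPM. After thinning, between 0.610% and 1.83% of the AngII B and T cells had a UMI of a given gene (1.96% to 7.19% unthinned). Levels up to about this range in the AngII library are therefore not distinguished from background. The ungated AngII cells held 1682 CPM of the 7 genes together, so part of the lectin transcripts lies outside the named classes.

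Among steady state resident macrophages (104 cells gated by complement C1q genes and then by Lyve1, Folr2, Cd163 and related genes), the lectin transcripts were mainly Clec4a3, Clec12a and Clec4a1. Clec4a3 stood at 298 CPM (267 to 332), Clec12a at 292 CPM (261 to 325) and Clec4a1 at 200.2 CPM (175 to 228). The intervals of Clec4a3 and Clec12a overlapped, and Clec4a1 lay below both. Clec7a followed at 108 CPM (89.3 to 129) and Clec4n at 62.8 CPM (49.0 to 79.4), with intervals that did not overlap. Clec4d was close to absent, with 3 UMIs in 3 cells or 2.69 CPM (0.555 to 7.87). Clec4e reached 70.0 CPM (55.4 to 87.4), but 64 of its 78 UMIs came from 1 cell. That cell, with 25883 UMIs, also held 22 of the 70 Clec4n UMIs and 119 UMIs of the 8 neutrophil markers, where the next highest resident macrophage held 17 and the median was 1. Without it Clec4e fell to 12.9 CPM and Clec4n to 44.1 CPM. The part of neutrophil RNA in this cell's values was not tested.

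The other steady state myeloid classes were small. In 15 nonclassical monocytes, gated by Ace, Treml4 and related genes, Clec4a3 reached 731 CPM (609 to 870.1) and Clec4a1 394 CPM (306 to 500), which was 2.45 (1.98 to 3.02) and 1.97 (1.48 to 2.60) times the level in resident macrophages. The 25 macrophages gated by Ear2, Retnla and Lyz1, genes linked to type-2 responses, held 281 CPM of Clec4a3 (242 to 325) and 213 CPM of Clec7a (179 to 252, or 166 without 1 cell with 38 of the 137 UMIs), while Clec12a was lower than in resident macrophages at 115 CPM (ratio 0.394, 0.302 to 0.509). The 12 cDC1, the cross-presenting dendritic cells, held Clec12a at 234 CPM (179 to 301, or 191 without 1 cell with 18 of the 60 UMIs) and 6 UMIs of the other 6 genes together. The 12 cDC2 held Clec4a3, Clec12a, Clec7a and Clec4a1 at 86.9 to 174 CPM and no UMI of Clec4d, Clec4e or Clec4n, which allows up to 11.3 CPM of each. The 4 neutrophils held 24 UMIs of Clec4d, or 1034 CPM (663 to 1539), with a UMI in 4 of 4 cells, and 689.9 CPM remained without the cell that held 11 of them. At steady state the gene was therefore measured in neutrophils and near 0 in resident macrophages, although 4 cells from 1 library are a thin base.

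In the AngII library every gene was detected in every macrophage and monocyte class. Clec4e was highest in the 185 neutrophils at 1157 CPM (1059.6 to 1260.1), followed by nonclassical monocytes at 498 CPM (411 to 596), macrophages gated by Arg1, Spp1 and hypoxia-related genes at 344 CPM (309.7 to 382) and classical monocytes at 294 CPM (269 to 319.9). The last pair had overlapping intervals. Clec4d was likewise highest in neutrophils, at 749.7 CPM (672 to 834), ahead of the 193 Arg1 Spp1 macrophages at 493 CPM (451 to 537) and the 420 classical monocytes at 216 CPM (195 to 239). Clec4n and Clec7a, the Dectin-2 and Dectin-1 genes, were also highest in these classes. Clec4n stood at 1077 CPM (1014 to 1141) in Arg1 Spp1 macrophages and 900.1 CPM (815 to 992) in neutrophils, and Clec7a at 885 CPM (829 to 944) and 763 CPM (685 to 848). In resident macrophages (663 cells) the 4 Syk-coupled receptors ranged from 77.0 CPM for Clec4e to 202 CPM for Clec4n.

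The DCIR genes and Clec12a were ordered otherwise. Clec4a3 was at 591 CPM (497 to 698) in nonclassical monocytes, 533 CPM (499.7 to 568) in classical monocytes and 532 CPM (497 to 569.5) in the 427 C1q macrophages without the resident signature, with overlapping intervals, and at 431 CPM (407 to 455) in resident macrophages. Clec4a1 was at 399.7 CPM (323 to 489) in nonclassical monocytes and 335 CPM (314 to 356) in resident macrophages, which overlapped. Both were low in neutrophils, at 66.3 CPM for Clec4a1 and 111 CPM for Clec4a3. Clec12a was highest in nonclassical monocytes, at 395 CPM (319 to 484), where 1 cell held 26 of 93 UMIs, and 319 CPM remained without it. It stood at 172 to 212 CPM in resident, other C1q, Arg1 Spp1 and classical monocyte cells and in cDC1. The 285 cDC1 held Clec12a at 199 CPM (179 to 221) against 13.7 to 36.1 CPM of each of the other genes, which is near the range of the B and T cells.

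**Figure D1:**
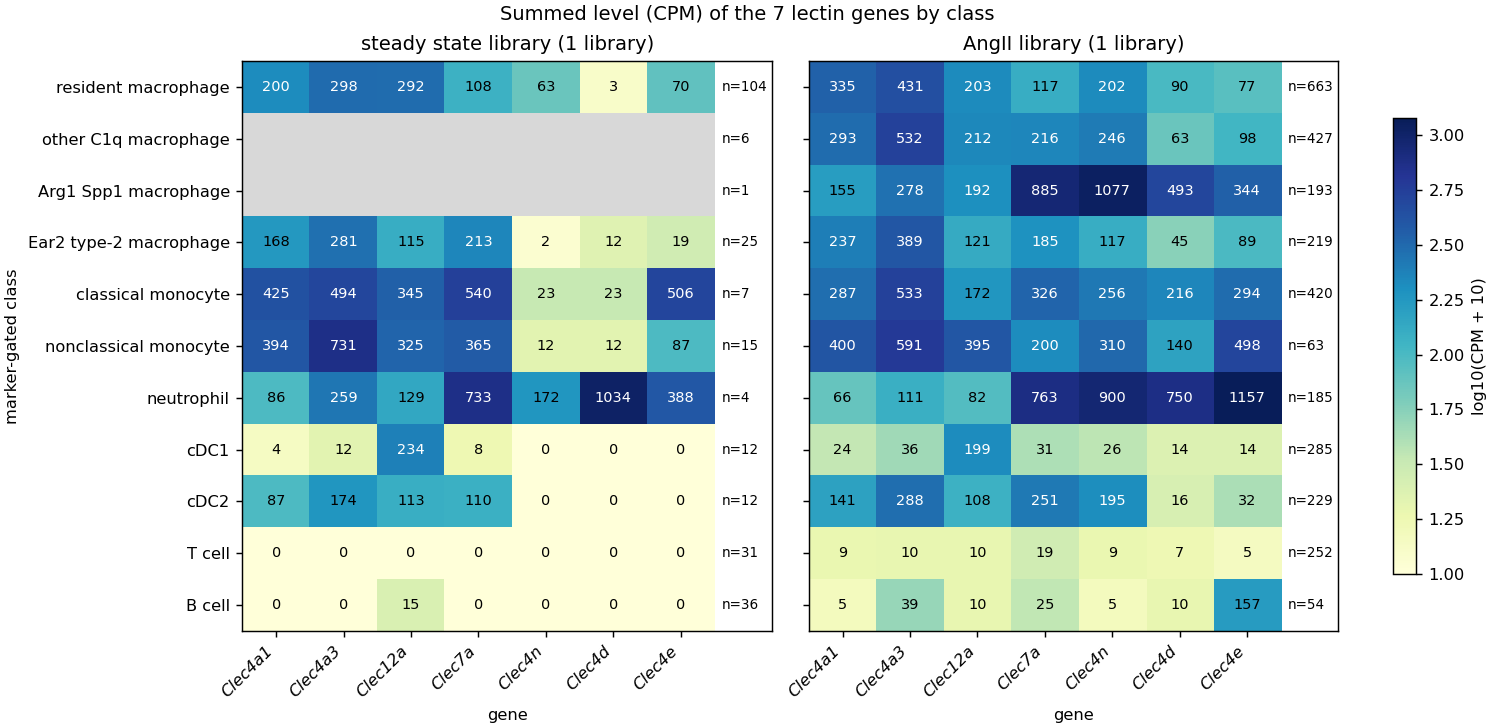
Summed level in CPM of each gene (columns) in each marker-gated class (rows) of the steady state library (left) and the AngII library (right), coloured on a log10(CPM + 10) scale, with the number of cells at the right of each row and classes not compared in grey. Within the AngII library, Clec4n and Clec4d were highest in neutrophils and Arg1 Spp1 macrophages, and Clec4e reached 1157 CPM in neutrophils. At steady state the 4 neutrophils held Clec4d at 1034 CPM. In both libraries cDC1 held Clec12a (234 and 199 CPM) and little of the other genes.

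The share of cells with a UMI gave a similar order at equal depth. Among the 104 steady state resident macrophages, 81.7% had a Clec4a3 UMI, 78.8% a Clec4a1 UMI and 74.0% a Clec12a UMI, against 46.2% for Clec7a, 21.2% for Clec4n, 6.73% for Clec4e and 2.88% for Clec4d. Thinned to 1000 UMIs (103 cells), the first 3 stood at 26.2%, 12.6% and 19.4% and the other 4 at 7.77%, 5.83%, 1.94% and 0%. In the AngII library, the 120 thinned Arg1 Spp1 macrophages had Clec4n in 45.8%, Clec7a in 38.3%, Clec4d in 27.5% and Clec4e in 25.8% of cells (56.5%, 50.8%, 47.2% and 36.3% of 193 unthinned). In the 113 thinned neutrophils Clec4e (49.6%) and Clec4n (48.7%) were found about equally often. The 196 thinned classical monocytes had Clec4a3 in 41.3% and each of the 4 Syk-coupled receptors in 17.3% to 21.9% of cells (46.9% and 25.5% to 32.6% of 420 unthinned). The 144 thinned cDC1 had Clec12a in 14.6% and every other gene in 2.78% to 5.56% of cells (30.5% and 7.37% to 12.6% of 285 unthinned), and the 144 thinned cDC2 had Clec4a3 in 22.2%, Clec7a in 13.9% and Clec4n in 11.1% (35.4%, 33.2% and 31.0% of 229 unthinned).

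The comparison of both conditions was made within the resident macrophage gate, the largest class present in both libraries. Near the cut between resident and other C1q macrophages lay 6 of 110 such cells at steady state and 233 of 1090 under AngII. An EYFP UMI was found in 76.0% of steady state and 26.4% of AngII resident macrophages, at unequal depth. The part of a different mix of cells in the ratios below was not tested. Clec4n and Clec4d were higher in the AngII library, Clec4a1 and Clec4a3 were moderately higher, Clec12a was lower in summed CPM, and Clec7a differed by less than the counting error. Clec4n rose from 62.8 to 202 CPM, a ratio of 3.21 (2.5 to 4.18), and the ratio was 4.46 without the cell with most UMIs in each library. Clec4d went from 2.69 to 90.1 CPM, with 3 UMIs at steady state against 262 under AngII and a ratio of 33.4 (11.3 to 163). With classes from clusters this ratio was 13.2 (6.88 to 29.2), and under a stricter gate 86.1. Clec4a1 was at 1.67 (1.44 to 1.94) and Clec4a3 at 1.45 (1.28 to 1.64) times the steady state level. Clec12a went from 292 to 203 CPM, a ratio of 0.695 (0.606 to 0.798), but the ratio was 1.01 after thinning to 1000 UMIs and 0.426 after thinning to 500. The thinned values come from a single random draw and rest on few steady state UMIs. They cannot tell an effect of depth from sampling error, and the size of the difference is not settled. Clec7a stood at 108 and 117 CPM (ratio 1.08, 0.876 to 1.34). For Clec4e the ratio was 1.10 (0.846 to 1.44) with the single high cell and 5.59 without the top cell of each library, so that 1 steady state cell decides this value.

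Past 2-fold higher were 2 of the 7 genes, Clec4n and Clec4d, beside 7.46% of 9773 genes tested in this comparison. Past 2-fold lower were 0 of 7, beside 7.70%. Across those genes the median log2 ratio was -0.02. After thinning, 17.0% of 405 AngII and 5.83% of 103 steady state resident macrophages had a Clec4n UMI (33.3% and 21.2% unthinned), and 28.6% and 12.6% had a Clec4a1 UMI (46.5% and 78.8% unthinned). Clec4d was found in 8.89% of the thinned AngII cells and in 0 of the 103 steady state cells, which allows a share of up to 2.91% (19.3% and 2.88% unthinned). With cells of at least 5000 UMIs in both libraries, a setting chosen after seeing the data, the ratios were 2.79 for Clec4n, 28.4 for Clec4d, 1.68 for Clec4a1 and 0.735 for Clec12a.

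Markers of other classes moved with these differences. The 8 classical monocyte markers summed to 190.3 CPM in steady state resident macrophages (6 of 8 detected, Vcan and Chil3 at 0, 0 to 2187 CPM per cell) and to 1243 CPM in the AngII ones (8 of 8, 0 to 5269). The 8 Arg1 Spp1 markers summed to 67.3 CPM (5 of 8, with Arg1, Inhba and Vegfa at 0, and 0 to 1550.1 per cell) and 369 CPM (8 of 8, 0 to 8864), and the 8 neutrophil markers to 309.7 CPM (7 of 8, Retnlg at 0, 0 to 4598) and 434 CPM (8 of 8, 0 to 14986). The 4598 CPM at steady state belonged to the single cell with 119 neutrophil marker UMIs, and the steady state sum without it was not computed. In B and T cells the classical monocyte list summed to 690.2 CPM at steady state and 561 CPM under AngII, the Arg1 Spp1 list to 92.9 and 163 CPM, and the neutrophil list to 6.64 and 99.3 CPM. Their part in the rise of Clec4n and Clec4d was not tested.

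The rise of Clec4n was not limited to the resident gate. In Ear2 macrophages it went from 1 UMI at steady state (1.55 CPM) to 104 under AngII (117 CPM), a ratio of 75.4 (13.2 to 3007). In nonclassical monocytes it went from 2 UMIs (11.6 CPM) to 73 (310.4 CPM), a ratio of 26.8 (7.15 to 225). In cDC2 no UMI was seen in 12 steady state cells and 308 were seen in 229 AngII cells (195 CPM), which is at least 17.2-fold higher against a floor of 3 UMIs over the steady state class. Clec4d and Clec4e followed in Ear2 macrophages, at 3.63 (1.67 to 8.97) and 4.77 (2.59 to 9.63) times the steady state level, and in nonclassical monocytes, at 12.1 (3.09 to 104) and 5.72 (3.33 to 10.5). All these steady state values rest on 12 to 25 cells. The steady state cDC2 had 1 of their own markers, Cd209a, among their top 10 genes, beside cell-cycle genes such as Top2a and Nusap1. The AngII cDC2 had 4 of their own markers there. The cDC2 ratios, here and below, therefore compare groups with different top genes, and the part of this difference in them was not tested.

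Clec7a did not rise with Clec4n in every class. It differed by less than the counting error in Ear2 macrophages (213 and 185 CPM, ratio 0.868, 0.688 to 1.10), was lower in nonclassical monocytes (365 and 199.9 CPM, ratio 0.547, 0.367 to 0.811) and higher in cDC2 (109.6 and 251 CPM, ratio 2.29, 1.57 to 3.46). Clec12a had a ratio near 1 in Ear2 macrophages (1.05, 0.772 to 1.43), nonclassical monocytes (1.22, 0.865 to 1.73), cDC1 (0.852, 0.647 to 1.14) and cDC2 (0.954, 0.644 to 1.46). In Ear2 macrophages 3 of 7 genes were past 2-fold higher, beside 6.70% of 6986 genes, and 0 of 7 past 2-fold lower, beside 6.40%. These comparisons share no cells with one another but share the same pair of libraries, so they are not independent replicates of a treatment effect, and the difference between classes was not tested.

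**Figure D2:**
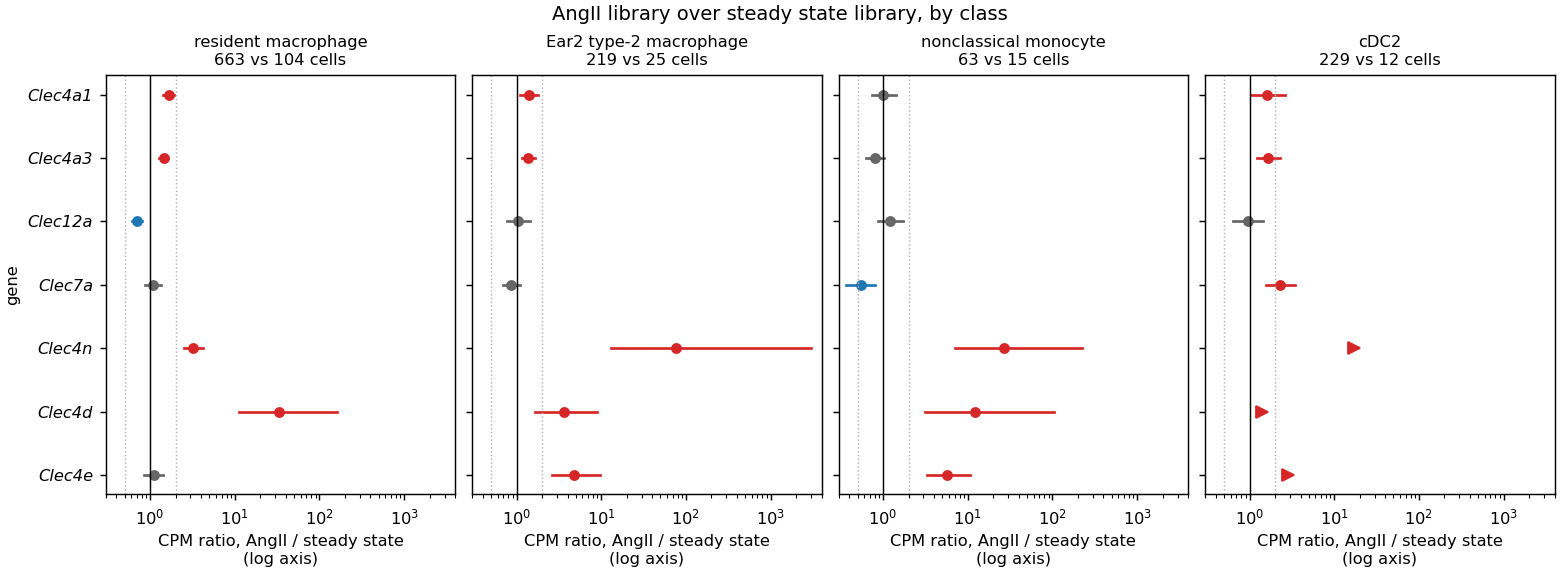
CPM in the AngII library divided by CPM in the steady state library for each gene in 4 classes, on a log axis with 95% counting intervals; red and blue mark intervals above and below 1, dotted lines mark 2-fold, and arrowheads in cDC2 mark lower bounds where no UMI was counted at steady state. Clec4n lies right of 2-fold in each of the 4 panels, and Clec12a lies left of 1 in resident macrophages with a ratio of 0.695.

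Within the AngII library, each class was set against the resident macrophages of the same library, which removes the difference in library depth and preparation. Arg1 Spp1 macrophages held more of each of the 4 Syk-coupled receptors. Clec7a was 7.59 times (6.70 to 8.63), Clec4d 5.47 times (4.70 to 6.37), Clec4n 5.33 times (4.82 to 5.91) and Clec4e 4.47 times (3.77 to 5.31) the resident level. Clec4a1 was lower at 0.463 (0.389 to 0.548), Clec4a3 at 0.645 (0.566 to 0.734), and Clec12a differed by less than the counting error at 0.949 (0.804 to 1.12). Past 2-fold higher were 4 of 7, beside 5.02% of 9546 genes, and past 2-fold lower 1 of 7, Clec4a1, beside 9.38%. High values in single cells contributed, since the highest cell held 136 of 920 Clec7a UMIs and 105 of 1119 Clec4n UMIs.

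Neutrophils showed the widest split between both groups of genes. Clec4e was 15.0 times (12.8 to 17.6), Clec4d 8.32 times (7.06 to 9.82), Clec7a 6.55 times (5.62 to 7.63) and Clec4n 4.46 times (3.92 to 5.07) the resident level, while Clec4a1 stood at 0.198 (0.133 to 0.285), Clec4a3 at 0.257 (0.189 to 0.341) and Clec12a at 0.403 (0.281 to 0.563). All 7 genes were thus past 2-fold, 4 higher beside 11.6% of 9274 genes and 3 lower beside 27.6%. The median log2 ratio over all genes tested was -0.21. After thinning, 49.6% of 113 neutrophils had a Clec4e UMI and 43.4% a Clec4d UMI (52.4% and 49.7% of 185 cells unthinned).

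Classical monocytes, gated by Ly6c2, Plac8 and related genes, lay between these classes and the resident macrophages in the 4 Syk-coupled receptors, but not in Clec4a3 or Clec12a. Clec4e was 3.81 times (3.25 to 4.48), Clec7a 2.80 times (2.44 to 3.21) and Clec4d 2.40 times (2.05 to 2.82) the resident level, and Clec4n only 1.27 times (1.12 to 1.43). Clec4a3 stood at 1.24 (1.14 to 1.35), Clec4a1 at 0.857 (0.768 to 0.955) and Clec12a at 0.849 (0.737 to 0.977). When classes were taken from clusters, the Clec4a1 ratio turned to 1.06. Past 2-fold higher were 3 of 7, beside 4.87% of 9837 genes, and 0 of 7 were past 2-fold lower, beside 11.9%, with a median log2 ratio over all genes of -0.13. Clec4d and Clec7a fell below 2-fold under some of the other settings listed at the end, so this count depends on the processing. At steady state the 7 classical monocytes also held more Clec7a (540.5 CPM, 5.02 times, 3.50 to 7.08) and Clec4e (506 CPM, 7.23 times, 4.88 to 10.6) than resident macrophages. In the steady state monocytes 35 of the 44 Clec4e UMIs came from 1 cell, and 128 CPM remained without it. Clec4n had 2 UMIs there and a ratio of 0.366 (0.0435 to 1.37), which was 1.09 under the stricter gate, so no direction can be given.

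Nonclassical monocytes of the AngII library stood furthest above resident macrophages in Clec4e (6.46 times, 5.12 to 8.11), and Clec4a3, Clec4d, Clec4n, Clec7a and Clec12a were at 1.37 to 1.95 times the resident level, of which the Clec12a value rests in part on the 1 cell named above. Among dendritic cells, cDC2 held as much Clec4n as resident macrophages (ratio 0.965, 0.838 to 1.11), more Clec7a (2.15, 1.86 to 2.5) and less Clec4d (0.175, 0.111 to 0.265), which at 15.8 CPM lay near background. In cDC1 Clec12a equalled the resident level within counting error, at 0.982 (0.860 to 1.12), whereas the other 6 genes had ratios from 0.0720 for Clec4a1 to 0.268 for Clec7a. The same held for Clec12a in steady state cDC1, at 0.802 (0.598 to 1.06). The 24 migratory dendritic cells held Clec7a at 207 CPM (142 to 290.1), of which 1 cell gave 12 of 33 UMIs, and no Clec4a1.

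**Figure D3:**
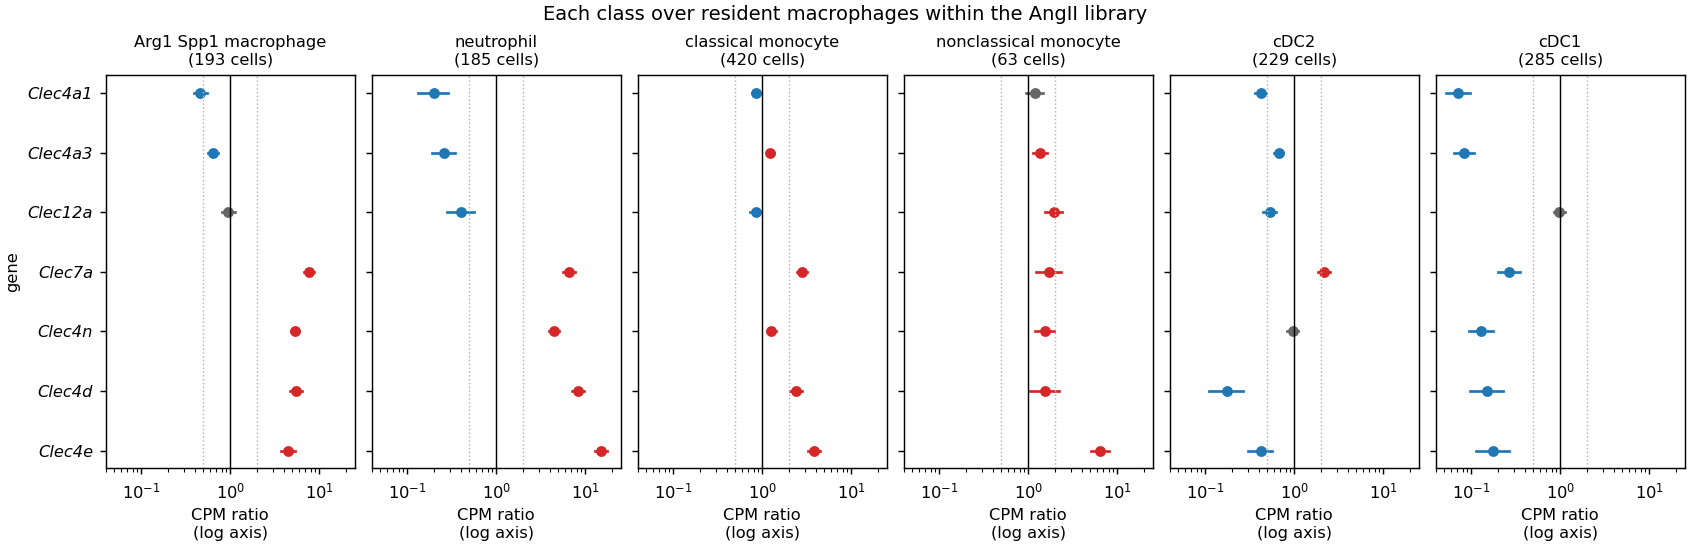
CPM of each gene in 6 classes of the AngII library divided by CPM in the resident macrophages of that library, on a log axis with 95% counting intervals; red and blue mark intervals above and below 1, and dotted lines mark 2-fold. The 4 Syk-coupled receptors lie right of 2-fold in Arg1 Spp1 macrophages and neutrophils, and Clec12a lies at 0.982 in cDC1, where the other genes are at 0.268 or lower.

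The share of each gene among the UMIs of the 7 genes was also computed, since it uses no library total. The 4 Syk-coupled receptors made up 23.5% (21.1 to 26.1) of these UMIs in steady state resident macrophages and 33.4% (32.0 to 34.8) in AngII resident macrophages. The steady state value includes the 1 cell with 119 neutrophil marker UMIs. That cell gave 64 Clec4e, 22 Clec4n, 8 Clec7a and 1 Clec4d of the 271 UMIs of the 4 receptors. It held only 2 Clec4a1, 2 Clec4a3 and 4 Clec12a UMIs. The steady state share would therefore be lower without it, by an amount that was not computed. In nonclassical monocytes the share was 24.7% (20.2 to 29.7) at steady state and 45.3% (41.3 to 49.4) under AngII, and in cDC2 22.7% (15.7 to 30.9) and 47.9% (45.4 to 50.3). In Ear2 macrophages it was 30.3% (26.4 to 34.5) and 36.9% (34.0 to 39.9), where the intervals overlapped. In each of these 4 classes the AngII share was the higher, although the cDC2 of both libraries differed in their top genes as stated above. Shares in the AngII library were 52.4% (50.8 to 54.0) in classical monocytes, 81.7% (80.4 to 83.0) in Arg1 Spp1 macrophages and 93.2% (92.0 to 94.4) in neutrophils. The 4 steady state neutrophils had 83.1% (71.7 to 91.2) of 65 UMIs. Summed over the 7 genes, resident macrophages held 1033 CPM at steady state and 1454 CPM under AngII, Arg1 Spp1 macrophages 3424 CPM and AngII neutrophils 3828 CPM.

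**Figure D4:**
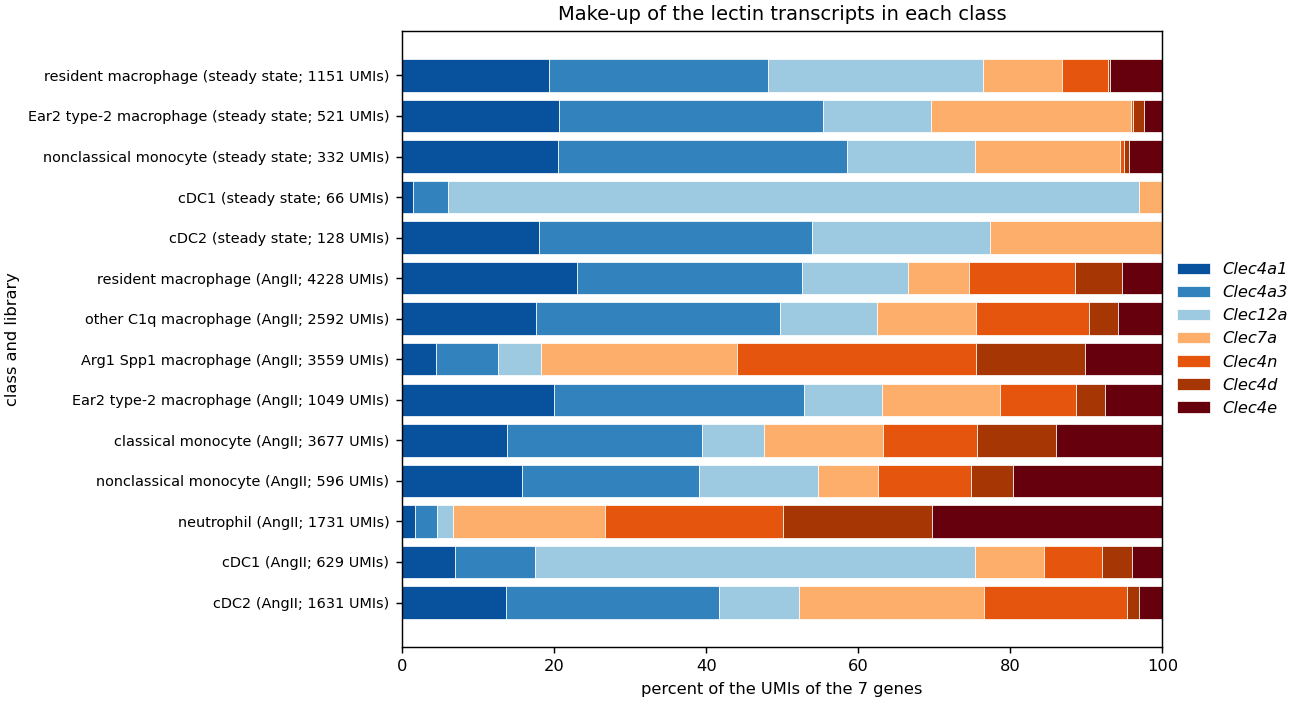
Share of each gene among the UMIs of the 7 lectin genes, in percent, in each class with at least 12 cells, with blue for Clec4a1, Clec4a3 and Clec12a and orange to dark red for Clec7a, Clec4n, Clec4d and Clec4e. The orange and red part grows from 23.5% in steady state resident macrophages, their single high cell included, to 93.2% in AngII neutrophils. Clec12a fills 90.9% of the steady state cDC1 bar.

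Resident macrophages were also divided by the reporter transcript, where Yfp+ means at least 1 EYFP UMI. In the AngII library 175 of 663 resident macrophages were Yfp+, where the depth per cell differed widely (medians of 6946 UMIs in Yfp+ and 1013 in Yfp- cells), so that Yfp- also holds labelled cells in which the transcript was missed. Clec4d was lower in Yfp+ cells at 74.1 against 112 CPM (ratio 0.663, 0.516 to 0.851), yet thinning after the Yfp call gave 1.60, so its direction is not settled. Clec4a3 was at 402 and 470.4 CPM (0.854, 0.763 to 0.956) and Clec12a at 219 and 181 CPM (1.21, 1.03 to 1.44). Clec4n, Clec7a, Clec4e and Clec4a1 had intervals that include 1. At steady state 79 of 104 resident macrophages were Yfp+, and Clec7a was lower in them at 98.1 against 172 CPM (0.572, 0.365 to 0.928), but 0.951 when 2 UMIs were required. All 78 Clec4e UMIs and 69 of the 70 Clec4n UMIs of that class lay in Yfp+ cells, the single high cell among them. The Yfp+ cells were also the more numerous and the deeper, with medians of 10720 UMIs against 5153 in Yfp- cells. These counts therefore do not show that either gene is limited to Yfp+ cells. In the other C1q macrophages of the AngII library (58 Yfp+ and 369 Yfp-), Clec4e stood at 35 in Yfp+ and 132 CPM in Yfp- cells (0.266, 0.155 to 0.432) and Clec7a at 166 and 243 CPM (0.683, 0.531 to 0.873), while Clec4n, Clec4a1, Clec4a3, Clec4d and Clec12a had intervals that include 1. Depth differed in this class too, with medians of 3694.5 UMIs in Yfp+ and 893 in Yfp- cells. Neither thinning nor the call from 2 UMIs was applied to it, so these differences were not checked for depth.

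Single cells were examined for joint detection of the neighbours Clec4d and Clec4e, whose proteins can form a complex, and of both Dectin genes. Without correction for depth, 71.7% of AngII neutrophils with a Clec4d UMI and 33.3% of those without had a Clec4e UMI, and in classical monocytes the shares were 65.4% and 16.3%. After thinning, the shares in neutrophils were 53.1% (38.3 to 67.5) and 46.9% (34.3 to 59.8), and in classical monocytes 17.6% (6.76 to 34.5) and 21% (15.0 to 28.1), which overlap. In some classes a gap was also present at equal depth. In Arg1 Spp1 macrophages Clec4e was detected in 45.5% (28.1 to 63.6) of 33 thinned cells with and 18.4% (10.9 to 28.1) of 87 without a Clec4d UMI, and Clec7a in 50.9% (37.1 to 64.6) of 55 with and 27.7% (17.3 to 40.2) of 65 without a Clec4n UMI. The intervals touch for the first pair and overlap for the second. The shares of Clec4e by Clec4d were 75.0% (19.4 to 99.4) of 4 against 3.57% (1.17 to 8.14) of 140 cells in cDC2. The cDC2 gap rests on 3 of 4 cells, in a class where Clec4d lay near background at 15.8 CPM. The part of misgated or mixed cells in it was not tested. In Ear2 macrophages the shares were 50.0% (6.76 to 93.2) of 4 against 9.38% (4.38 to 17.1) of 96 cells, and overlapped. A gap by Clec4a1 was also present there (6 of 20 against 5 of 80 cells, overlapping). In other C1q macrophages and nonclassical monocytes, Clec4e was less frequent with a Clec4d UMI (5.88% against 8.72%, and 2 of 8 against 13 of 31 cells). In resident macrophages and cDC1 it was more frequent (11.1% against 5.96%, and 1 of 5 against 3 of 139 cells). The intervals overlapped in each of these classes. In resident macrophages Clec7a was found in 4.35% (0.906 to 12.2) of thinned cells with and 11.9% (8.64 to 15.9) without a Clec4n UMI.

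**Figure D5:**
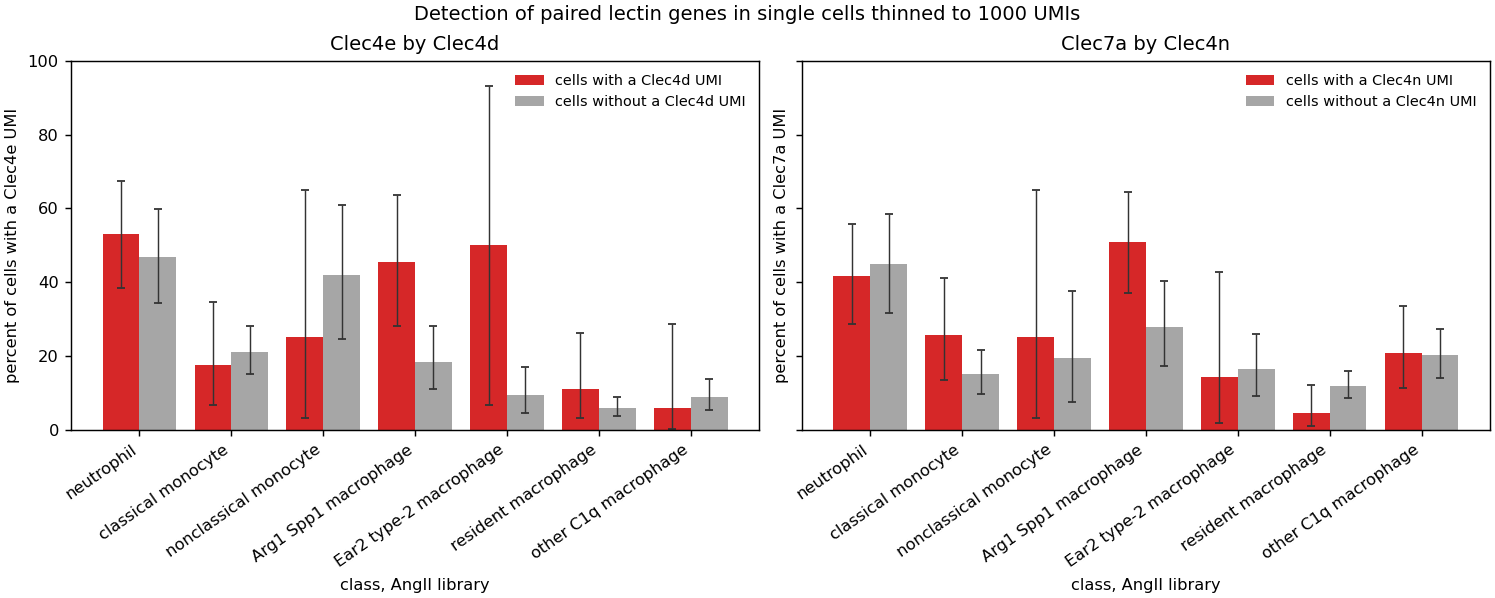
Percent of AngII cells, each thinned to 1000 UMIs, with a Clec4e UMI by presence of a Clec4d UMI (left) and with a Clec7a UMI by presence of a Clec4n UMI (right), in 7 classes, with 95% exact binomial intervals. In Arg1 Spp1 macrophages the bars stand at 45.5% and 18.4% (left) and at 50.9% and 27.7% (right), and in neutrophils the bars of each pair overlap.

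Over the 14 class and library groups of at least 30 cells, the log2(CPM + 10) profiles of the members were compared as a description, since these groups share libraries and depth. Clec4a1 and Clec4a3 were most alike (r = 0.98), followed by Clec4n and Clec7a (0.97) and Clec4d and Clec4n (0.90). The neighbours Clec4d and Clec4e had r = 0.87, and Clec12a was least like Clec4d (0.53). Outside the 7 genes and the gate markers, the gene most like Clec4a3 was Clec4a2 (r = 0.976), a DCIR gene that lies between Clec4a3 and Clec4n. Clec4a1 was most like Nupr1 (0.981), Clec4d like Fpr2, a formyl peptide receptor gene (0.970), Clec4e like Nlrp3, the inflammasome sensor gene (0.941), and Clec12a like Ifnar2, an interferon receptor gene (0.965). Slc15a3, a lysosomal transporter gene, came first for both Clec4n (0.982) and Clec7a (0.981). The next genes were S1pr2 and Xdh for Clec4a1, Ifitm3 and Cd302 for Clec4a3, Il1rn and Tgm2 for Clec4d, Ccrl2 and Cpeb2 for Clec4e, Cstb and Prdx5 for Clec4n, Tlr2 and Ccr1 for Clec7a, and Asah1 and Hfe for Clec12a, with r from 0.924 to 0.971.

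The downstream signalling genes were described from fixed lists. Of 10 adaptor and kinase genes, 9 were tested in resident macrophages, 1 was past 2-fold higher under AngII and 0 lower, beside 7.46% and 7.70% of all genes, with a median log2 ratio of 0.66. The gene past the limit was Fgr, a Src-family kinase, at 7.18 and 61.2 CPM (ratio 8.52, 4.23 to 20). Fcer1g, the adaptor of Clec4n, Clec4d and Clec4e, stood at 1706 and 2704 CPM (1.58, 1.51 to 1.67), and Syk at 189 and 141 CPM (0.742, 0.627 to 0.881). In neutrophils 2 of 9 were past 2-fold higher than in resident macrophages, beside 11.6% of all genes, among them Fgr at 6.54 (5.29 to 8.09), while Syk stood at 1.95 (1.58 to 2.39), and in Arg1 Spp1 macrophages 1 of 10 was higher, beside 5.02%. All 9 genes of the Card9 complex and NF-kB list lay within 2-fold between conditions in resident macrophages (median log2 ratio 0.01), with Card9 itself at 10.8 and 20.3 CPM (1.88, 1.0 to 3.85). The 6 phosphatases and ligases that restrain the pathway lay within 2-fold there as well (median 0.21), and in neutrophils 2 were higher and 2 lower than in resident macrophages, beside 11.6% and 27.6% of all genes, among them Ptpn6 (SHP-1), a phosphatase, at 2.15 (1.83 to 2.51). Of the 9 Card9 complex and NF-kB genes, 1, Malt1, was past 2-fold above resident macrophages in 3 AngII classes. It stood at 7.31 (5.83 to 9.21) in Arg1 Spp1 macrophages, 2.11 (1.63 to 2.73) in classical monocytes and 2.03 (1.34 to 3.00) in neutrophils, beside 5.02%, 4.87% and 11.6% of all genes. In neutrophils 1 of the 9, Map3k7, was past 2-fold lower at 0.330 (0.0877 to 0.879), beside 27.6%.

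Genes known to respond to these receptors differed in direction between classes. In resident macrophages, of 9 response genes tested, 1 was past 2-fold higher under AngII and 5 were past 2-fold lower (median log2 ratio -1.11), beside the 7.46% and 7.70% over all genes. Ptgs2, the inducible cyclooxygenase gene, went from 14.4 to 59.1 CPM (4.12, 2.46 to 7.36), whereas the chemokine gene Cxcl1 went from 185 to 54.7 CPM (0.296, 0.239 to 0.365), Egr2 from 449.8 to 136 CPM (0.303, 0.265 to 0.346) and Tnf from 153 to 65.0 CPM (0.426, 0.344 to 0.527). Egr3 and Il10 were the other genes past 2-fold lower. In Ear2 macrophages 4 of 9 were past 2-fold higher, beside 6.70% of all genes, and 2 lower, beside 6.40% (median 0.16), with Ptgs2 at 9.07 (3.98 to 25.5) and Cxcl1 at 3.22 (1.54 to 7.55). The difference between these classes was not tested. In the AngII library 7 of 10 response genes tested were past 2-fold higher in neutrophils than in resident macrophages and 1 lower, beside 11.6% and 27.6% of all genes (median 2.77). In Arg1 Spp1 macrophages 5 of 10 were higher and 2 lower, beside 5.02% and 9.38% (median 1.0), and in classical monocytes 2 of 9 higher and 4 lower, beside 4.87% and 11.9% (median -0.70). In neutrophils and Arg1 Spp1 macrophages Il1b, the interleukin 1 beta gene, stood at 31.5 (29.5 to 33.6) and 7.39 (6.89 to 7.94) times the resident level.

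Among the 7 partner and ligand genes, 7 of 7 lay within 2-fold between conditions in resident macrophages (median log2 ratio 0.46), and Tlr2, a receptor for bacterial lipoproteins, was 2.46 times (2.09 to 2.89) the resident level in Arg1 Spp1 macrophages. Of 11 other lectin-like genes of the chromosome region, 4 had enough UMIs to be tested between conditions in resident macrophages and 4 of 4 lay within 2-fold (median 0.39). Clec4a2, which carries an inhibitory motif, stood at 261 and 365 CPM (1.40, 1.23 to 1.60), close to the ratios of Clec4a1 and Clec4a3. Olr1, the receptor gene for oxidised LDL next to Clec7a, was at 44.3 CPM in Arg1 Spp1 macrophages and 2.41 CPM in resident macrophages (18.4, 8.25 to 48.3).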

How the data were processed

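The 2 single-cell libraries were of CD45+ adventitial cells. Per the study's methods, the authors demultiplexed the reads with Je and counted UMIs per gene with Cell Ranger 3.1.0 on GRCm38.p6 (GENCODE M24 gene models, eYFP added); the submitters' notes also list bcl2fastq. The deposited matrices hold whole-number UMI counts of filtered barcodes, not normalized. The study's filter was applied (300 to 6500 genes, mitochondrial UMIs up to 5%). Classes were gated per cell on 15 marker lists of 6 to 8 genes (at least 2 markers, a score of at least 0.25 and a lead of 1.5 over the next list), and C1q macrophages were called resident from 0.25% of UMIs in 8 resident markers. The scoring was settled after seeing the data and uses none of the 7 genes. UMIs were summed per class and library: with 1 library per condition no test was run, levels carry exact Poisson, ratios exact conditional binomial and shares Clopper-Pearson intervals. A gene was tested from 20 UMIs in both groups together and counted past 2-fold. Named genes were the 7 members, the pathway lists and the 3 genes most correlated with each member among those with at least 100 UMIs. The members and lists were chosen with earlier results of these data known. Alternatives were other cell filters, gates, clusters, thinning to 1000 or 500 UMIs, other scalings, background subtraction, removal of the highest cell and doublet calling. Scripts were tested on simulated data (Python 3.11.15, NumPy 2.4.6, SciPy 1.17.1, pandas 2.3.3, Scanpy 1.11.5, leidenalg 0.10.2). Positions and motif windows come from GENCODE M21 and RefSeq on GRCm38; Clec4a1 and Clec4a3 have RefSeq windows that are not printed, and Clec4n has none in the table used.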

Additional observations from a re-analysis of the deposited data

How the results depend on the processing

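Of 277 recomputed ratios, 221 stayed within the 95% interval of the reported value, 52 moved outside it and 4 whose interval excludes 1 crossed to the other side of 1. Another 15, of ratios whose interval includes 1, also crossed 1 and are counted among the first groups, among them steady state Clec4n in monocytes, 1.09 under the stricter gate. Clec4d, AngII over steady state, ranged from 13.2 (clusters) to 86.1 (stricter gate). AngII over steady state, resident macrophages: thinned to 1000 UMIs, Clec12a turned to 1.01, and Clec4a1 was 2.53, Clec4a3 1.24, Clec4e 3.69 and Clec7a 1.46; thinned to 500, Clec4a3 was 1.27, Clec7a 0.670 and Clec12a 0.426. Without the cell with most UMIs of the gene, Clec4e was 5.59 and Clec4n 4.46; under the stricter gate 5.48 and 4.23; as a mean of single-cell CPM 2.46 and 5.31, with Clec4a3 1.19 and Clec12a 0.605. Clusters gave 0.717 for Clec7a and 0.601 for Clec12a, and background subtraction 0.696 for Clec4e. The Clec4e background subtracted in the AngII library, here and for monocytes below, was 28.3 CPM. Of its 37 UMIs 32 came from 1 B cell, so both Clec4e values rest in large part on that cell.

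Classical monocytes over resident macrophages, AngII: clusters turned Clec4a1 to 1.06, with Clec4d 1.65 and Clec4n 1.05; the looser gate gave Clec4d 1.99, Clec4e 2.96 and Clec7a 2.30; the stricter gate Clec4d 2.97 and Clec4n 1.11; single-cell means Clec4a3 1.37, Clec4d 1.51, Clec4e 2.53, Clec4n 1.02 and Clec7a 1.59; thinning to 1000 Clec12a 0.689, Clec4n 1.51 and Clec7a 2.07; thinning to 500 Clec4a3 1.45, Clec4d 1.5, Clec4e 2.55 and Clec7a 1.81; background subtraction Clec4e 5.44; at least 1000 genes Clec4n 1.45; at least 5000 UMIs Clec7a 3.35. At steady state (7 monocytes), thinning to 1000 turned Clec4a3 to 0.892 and gave Clec4a1 8.41, Clec4e 36.8, Clec7a 9.20 and Clec12a 4.01; the stricter gate gave Clec4e 69.0 and Clec12a 0.663, and single-cell means Clec4e 12.3. Steady state clusters held no classical monocyte cluster.

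Yfp+ over Yfp- resident macrophages: thinning turned Clec4d to 1.60 under AngII, with Clec4a3 0.740 and Clec4n 0.659, and at steady state gave Clec4a1 1.82 and Clec7a 0.182; Yfp+ from 2 UMIs gave Clec7a 0.951. The causes were not tested. All deposited barcodes and scaling without mitochondrial and ribosomal protein genes moved no ratio outside its interval, nor did Scrublet, which called 2 steady state doublets and 0 of 4198 AngII cells and so did not work there. All 28 thinned shares of resident macrophages with a UMI moved from the unthinned ones. In thinned steady state cells a ratio rests on few UMIs. Depth, 1 library per condition and steady state classes of 4 to 25 cells set the limits. No paired analysis was possible because each condition is 1 library.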
